A study of Mus musculus with 12 samples.

Results

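The genes described here are 10 genes of the integrated stress response and the unfolded protein response, measured by RNA sequencing in R1 mouse embryonic stem cells (mESCs): Atf4, Ddit3, Atf3, Xbp1, Chac1, Trib3, Asns, Sesn2, Hspa5 and Herpud1. They were taken from the deposited expression table by gene symbol, 10 of 54555 genes, and all 10 passed the filter on low values that left 14866 genes for testing. R1 is a single established embryonic stem cell line, and all 4 groups were grown from it on gelatin in serum. The mESC_control libraries came from undifferentiated cells kept with leukemia inhibitory factor, and the mESC_OGTi libraries from such cells given 25 µM Ac45SGlcNAc for 48 h. Ac45SGlcNAc is a sugar analog that blocks O-GlcNAc transferase (OGT), which places single N-acetylglucosamine units on proteins of the nucleus and cytoplasm. For RA_control, cells pre-treated with vehicle were then given retinoic acid (RA) at 1 µM over 48 h, without leukemia inhibitory factor. For RA_OGTi, the pre-treatment was with the inhibitor, and whether it stayed during the RA step is not stated in the labels. Each group holds 3 libraries. The labels do not say what the replicate numbers stand for. Each p-value rests only on how far libraries of the same group lie apart, pooled over the 4 groups and moderated across genes. That distance may be technical.

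In both pathways a cell that senses trouble slows general protein synthesis and switches on repair genes. In the integrated stress response, kinases that sense amino acid shortage, heme shortage, double-stranded RNA or misfolded proteins phosphorylate the translation factor eIF2, and the transcription factor ATF4 is then made from its mRNA at a higher rate. ATF4 switches on genes of amino acid supply and, with CHOP, the product of Ddit3, genes of prolonged stress. The unfolded protein response is the arm that watches the endoplasmic reticulum (ER). It uses the sensors PERK, IRE1 and ATF6, and XBP1 is made in its active form after IRE1 cuts the Xbp1 mRNA. Gene-level sequencing values do not show eIF2 phosphorylation, the translation of Atf4 or the splicing of Xbp1, so all results below are mRNA levels.

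The start sites of these genes can carry short sequences through which these factors are known to act. RefSeq promoters of GRCm38.p6, reaching from 250 bases before to 50 bases after the start, were matched for all 10 genes and searched on both strands. The 8-base core of the C/EBP-ATF response element, TGATGNAA, to which ATF4 and CHOP bind with C/EBP partners, was found in 5 of the 10 promoters, against 3.97% of 32851 promoters of the same length. It lay 193 to 186 bases before the start of Chac1, 112 to 105 bases before that of Herpud1, 110 to 103 bases before that of Atf3 and 23 to 16 bases before that of Asns. In Trib3 it lay 15 to 22 bases after the start. The ER stress response element, written CCAAT, then any 9 bases, then CCACG, was found in Hspa5 alone of the 10, 65 to 47 bases before the start, and in 0.119% of all promoters. The related ER stress response element II, written ATTGG, then any base, then CCACG, was found in Herpud1 alone of the 10, 52 to 42 bases before the start, and in 0.0365% of all promoters. The 8-base unfolded protein response element TGACGTGG (0.676% of promoters) and the cyclic AMP response element TGACGTCA (1.79%) matched none of the 10, and Ddit3, Atf4, Sesn2 and Xbp1 held no match to any of these motifs. None of the motif matches overlapped another. A match is a description of letters and not a measured binding site. The sequences of 5 promoters are shown because they hold the matches in the genes described first below. Each is written 5′ to 3′ on the strand of its gene, with the matched bases in capitals.
Chac1, chr2:119350992-119351228, plus strand, core on the opposite strand: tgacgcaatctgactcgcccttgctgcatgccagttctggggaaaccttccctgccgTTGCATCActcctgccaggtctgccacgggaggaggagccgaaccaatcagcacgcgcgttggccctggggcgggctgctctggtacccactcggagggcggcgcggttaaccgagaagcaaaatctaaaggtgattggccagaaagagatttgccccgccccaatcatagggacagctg
Herpud1, chr8:94386179-94386428, plus strand, core on the opposite strand and then element II: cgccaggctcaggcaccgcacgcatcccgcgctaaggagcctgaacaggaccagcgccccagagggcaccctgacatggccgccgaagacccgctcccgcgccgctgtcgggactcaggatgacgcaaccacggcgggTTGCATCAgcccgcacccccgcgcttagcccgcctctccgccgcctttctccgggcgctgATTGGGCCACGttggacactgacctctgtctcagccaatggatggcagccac
Atf3, chr1:191183341-191183583, minus strand, core on the opposite strand: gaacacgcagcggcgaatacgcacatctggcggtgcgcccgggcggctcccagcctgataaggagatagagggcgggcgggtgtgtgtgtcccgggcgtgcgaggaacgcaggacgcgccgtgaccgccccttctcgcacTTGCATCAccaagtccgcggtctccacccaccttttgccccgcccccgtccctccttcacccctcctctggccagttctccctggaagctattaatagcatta
Asns, chr6:7693214-7693243, minus strand, core on the strand of the gene: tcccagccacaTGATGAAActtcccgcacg
Hspa5, chr2:34772019-34772048, plus strand, ER stress response element: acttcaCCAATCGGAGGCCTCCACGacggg
The RefSeq starts of Chac1, Atf3, Asns and Hspa5 lie inside the longer spans of the deposited genes, and all 30 printed bases of Asns and of Hspa5 are exonic in GENCODE M21. The map of motif matches around the start sites shows their positions.

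**Figure D1:**
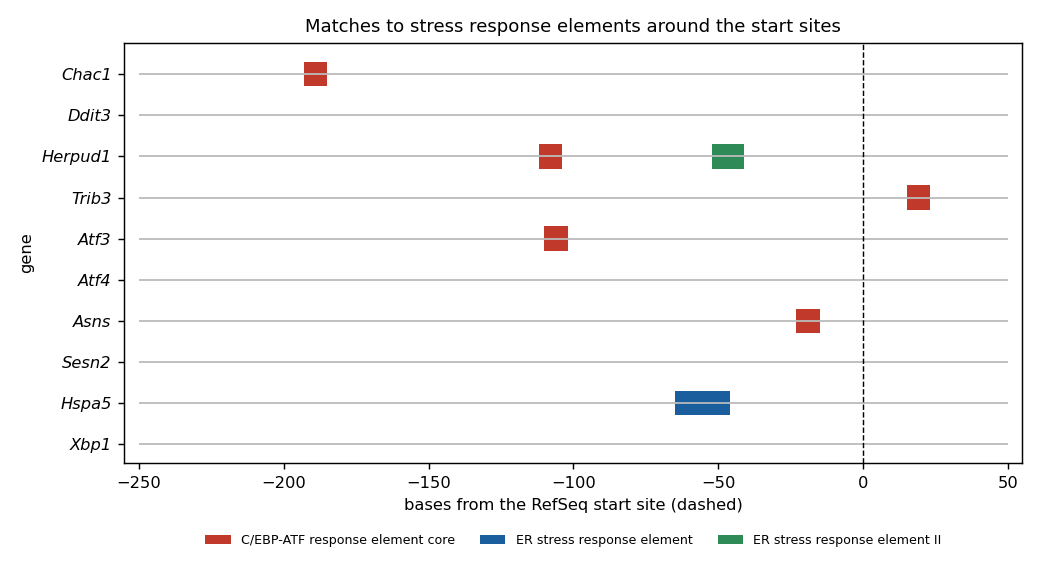
Matches to stress response elements in RefSeq promoters of the 10 genes. The x axis gives bases from the start site (dashed line), each grey line is the searched window of 300 bases, and each box is a match. The C/EBP-ATF core appears in 5 genes, the ER stress response element in Hspa5 and element II in Herpud1, and 4 genes have no box.

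The libraries held 15553627 to 17833464 fragments each, so the 10 genes were read deeply apart from Atf3, which had 47 to 50 fragments in each mESC_control library. Values are FPKM, fragments scaled to gene length and library depth, which can be compared between genes. The labelled cell types carried their markers: the summed FPKM of 8 embryonic stem cell markers was 5595 to 6025 in mESC libraries and 2011 to 3086 in RA-treated libraries, and that of 8 RA response markers was 47.7 to 59.0 and 823 to 1133. Of markers of other cell types, 8 for each, the sums in mESC and in RA-treated libraries were 5.95 to 7.16 and 16.7 to 21.3 for extraembryonic endoderm, 15.6 to 18.0 and 28.1 to 31.1 for fibroblasts, and 40.0 to 54.1 and 19.5 to 26.3 for neural cells. The neural sum fell although most of its tested members rose. Of the 4 neural markers tested in RA_control against mESC_control, 3 were higher and 1 lower at an adjusted p under 0.05 by limma. Their median log2 fold change was 0.66. Under 1 FPKM in mESC_control and RA_control were 5 and 3 of the endoderm, 4 and 4 of the fibroblast and 6 and 4 of the neural markers. The part of these cell types in the results below was not tested, and in such bulk samples fewer cells of a type and less RNA per cell cannot be told apart.

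In undifferentiated cells without inhibitor, Asns, which makes asparagine, had the highest level of the 10 genes, at 255 ± 4.36 FPKM (SD, n = 3). Hspa5, which encodes the main ER chaperone BiP, followed at 102 ± 7.01 FPKM and Atf4 at 99.3 ± 14.8 FPKM, a pair that did not differ beyond their spread. Sesn2, a stress-induced restraint on mTORC1 signalling, stood at 36.0 ± 1.88 FPKM and Xbp1 at 27.8 ± 0.667 FPKM. Below them came Trib3 (18.9 ± 1.99 FPKM), Chac1 (14.5 ± 4.70 FPKM), Ddit3 (11.6 ± 1.34 FPKM) and Herpud1 (8.49 ± 0.960 FPKM). In that lower part of the order, the ranges of Chac1 over libraries overlapped those of each of its neighbours Trib3 and Ddit3. Atf3 was the lowest, at 1.46 ± 0.0128 FPKM. After RA without inhibitor the order differed mostly in Ddit3, which moved from the eighth to the fourth place and stood at 77.7 ± 6.83 FPKM next to Atf4 at 83.7 ± 2.12 FPKM. The ranges of this pair overlapped through the highest Ddit3 library, at 84.9 FPKM.

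**Figure D2:**
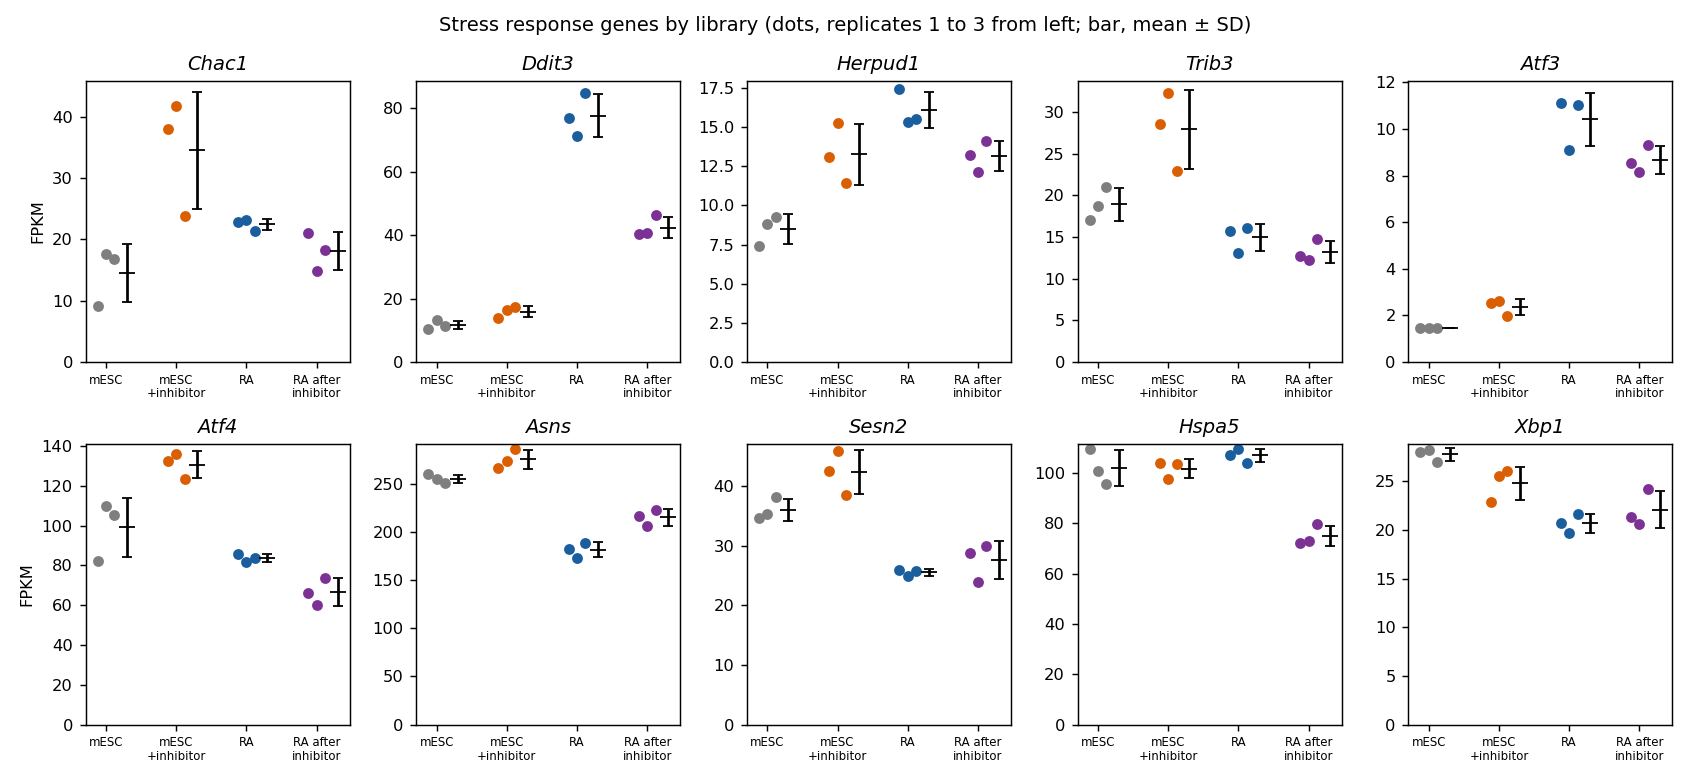
FPKM of the 10 genes in every library, with 1 panel per gene. Points are libraries (3 per group) and lines are group means. Chac1 is highest in mESC_OGTi, Ddit3 and Atf3 are highest in RA_control, and Hspa5 is lowest in RA_OGTi.

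OGT inhibition in mESCs was the first comparison, mESC_OGTi against mESC_control. The inhibitor came with higher mRNA of 6 of the 10 genes and lower mRNA of none: Chac1, Herpud1, Trib3, Atf3, Ddit3 and Atf4 rose, by 1.32-fold to 2.38-fold in group means. Over all 14866 genes tested, 4.6% were called higher and 3.18% lower, at an adjusted p under 0.05 from limma. The 10 genes were chosen with earlier results of these data known. Setting their counts beside such shares, here and below, is therefore a description and not a test. The median log2 fold change was 0.41 over the 10 genes and 0.01 over all genes tested. The remaining 4 genes, Asns, Sesn2, Hspa5 and Xbp1, did not pass.

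Of the transcription factors, Atf4, Ddit3 and Atf3 rose and Xbp1 did not pass. Atf4 measured 82.4, 109.9 and 106 FPKM in the mESC_control libraries and 133, 136 and 123 FPKM in the mESC_OGTi libraries. All 3 treated libraries were above all 3 controls, and the log2 fold change was 0.40 (SE 0.10, adjusted p = 0.0344). Ddit3, whose product CHOP promotes cell death under lasting stress, measured 10.5, 13.1 and 11.2 FPKM without and 13.8, 16.5 and 17.2 FPKM with inhibitor. Its groups did not overlap either, with a narrow gap, and the log2 fold change was 0.42 (SE 0.10, adjusted p = 0.0287). Atf3, a stress-induced repressor and activator, went from 1.48, 1.45 and 1.46 FPKM to 2.52, 2.60 and 1.96 FPKM, a 1.61-fold ratio of means (log2 0.44, SE 0.09, adjusted p = 0.0164). Its counts were low, at 66 to 84 fragments per treated library. Xbp1 measured 28.0, 28.2 and 27.0 FPKM without and 22.9, 25.5 and 26.0 FPKM with inhibitor. Its groups did not overlap and its treated libraries were the lower ones, but the log2 difference of -0.16 did not pass (adjusted p = 0.172).

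Among the target genes, Chac1 had the largest change of the 10. Chac1, located in GRCm38 on chromosome 2 (119351229 to 119354381, plus strand), encodes an enzyme that breaks down glutathione. It measured 9.09, 17.7 and 16.7 FPKM in the controls and 38.0, 41.8 and 23.7 FPKM with the inhibitor. The lowest treated library lay above the highest control, although both groups were spread widely. The mean rose 2.38-fold, from 14.5 ± 4.70 to 34.5 ± 9.54 FPKM, with a log2 fold change of 1.21 (SE 0.24, adjusted p = 0.0149). Trib3, a pseudokinase that restrains ATF4, CHOP and AKT, measured 17.1, 18.7 and 21.0 FPKM without and 28.6, 32.4 and 22.9 FPKM with inhibitor. As with Chac1, the third treated library was the closest to the controls (log2 0.53, SE 0.12, adjusted p = 0.0271). Asns and Sesn2 lay slightly above their controls in every treated library, with log2 values of 0.11 (95% interval 0.00 to 0.22, adjusted p = 0.21) and 0.23 (0.04 to 0.41, adjusted p = 0.123), and did not pass.

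The ER genes parted. Herpud1, an ER membrane protein of the degradation machinery, measured 7.41, 8.80 and 9.25 FPKM without and 13.1, 15.3 and 11.4 FPKM with inhibitor. The groups were clearly apart and the mean rose 1.56-fold (log2 0.58, SE 0.10, adjusted p = 0.00947). Hspa5 measured 109, 101 and 95.7 FPKM without and 104, 97.5 and 104 FPKM with inhibitor. Here the groups lay over one another, and the log2 difference of -0.0015 had a 95% interval from -0.13 to 0.12. The promoter printed above for Hspa5 holds the ER stress response element, and that of Herpud1 holds element II and the C/EBP-ATF core. Asns also holds the core and did not pass, and Ddit3 and Atf4 rose with no motif match. The part of these motifs in the changes was not tested.

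The calls in mESCs depended on few libraries. Without the second mESC_OGTi library, the highest of its group for 6 of the 10 genes, 1 gene was called (Herpud1), and without the first mESC_control library, the lowest for 6, 3 were called (Chac1, Herpud1 and Atf3). Leaving out any other of these 6 libraries left 4 or 5 called. Fitted on these 6 libraries alone, limma called 0 of the 10 genes at the adjusted threshold, with 8 higher and 1 lower at an unadjusted p under 0.05, and limma-voom on the whole fragments of all libraries called 5 higher and 0 lower. For Chac1 the adjusted p was 0.0614 without the second mESC_OGTi library and ranged from 0.000761 to 0.0738 over 16 alternatives. That for Herpud1 ranged from 0.00178 to 0.0524, Atf3 from 0.00879 to 0.0674, Ddit3 from 0.0109 to 0.103, Trib3 from 0.00406 to 0.101 and Atf4 from 0.00514 to 0.118.

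**Figure D3:**
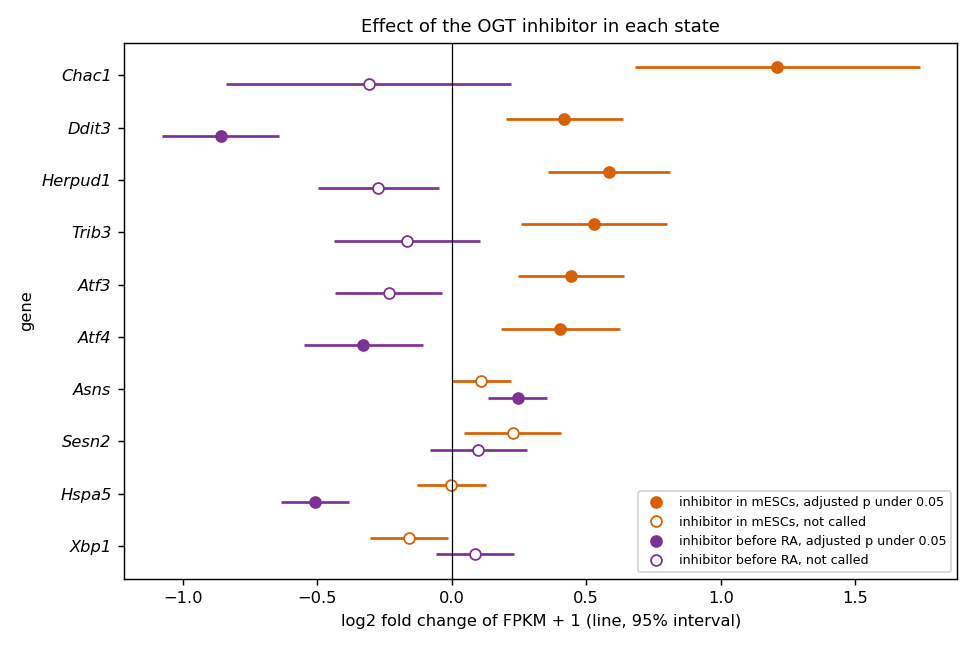
Log2 fold change of FPKM + 1 with the inhibitor of the 10 genes, drawn separately for mESCs and RA-treated cells. Points are estimates and bars are 95% intervals from limma. Among mESC values 8 of 10 points lie above 0, and in RA-treated cells 3 do.

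RA without inhibitor was the second comparison, RA_control against mESC_control. It came together with the loss of leukemia inhibitory factor, and these cannot be told apart. With RA, 4 of the 10 genes rose (Ddit3, Atf3, Herpud1 and Chac1) and 4 fell (Asns, Sesn2, Xbp1 and Trib3). Over all genes tested 33.7% were called higher and 37.2% lower, so a count of 4 in each direction is near the background. The median log2 fold change was -0.08 over the 10 genes and -0.03 over all. The sizes of Ddit3 and Atf3 stood out among the 10.

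Ddit3 rose 6.70-fold, from 11.6 ± 1.34 FPKM to 76.8, 71.3 and 84.9 FPKM in the 3 RA_control libraries (log2 2.64, SE 0.10, adjusted p = 1.07e-09). Ddit3 lies on chromosome 10 (127290774 to 127296288, plus strand), and 68 of its 1713 exonic bases in GENCODE M21 overlap Mars on the other strand. Mars, the methionyl-tRNA synthetase gene, fell with RA from 104 ± 3.27 to 70.9 ± 4.35 FPKM (log2 -0.54, adjusted p = 9.85e-06), opposite to Ddit3. The strand setting of the counting is not stated, and without it reads of the shared bases cannot be assigned to either gene. Another 105 bases are shared with a second gene model of the same name in GENCODE M21. A further 13 are shared with Gm4189 on the other strand, which reached at most 0.76 FPKM. The deposited gene that overlaps Ddit3 on the same strand, AC144852.1, is listed at 0 in every library. Atf3 rose 7.12-fold to 11.1, 9.09 and 11.03 FPKM (log2 2.21, SE 0.09, adjusted p = 1.98e-09), and the lowest RA_control library lay far above the highest mESC_control library. Herpud1 rose 1.90-fold to 17.4, 15.3 and 15.5 FPKM (log2 0.85, SE 0.10, adjusted p = 1.51e-05).

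Chac1 rose less firmly, to 22.8, 23.1 and 21.4 FPKM (log2 0.65, SE 0.24, adjusted p = 0.0302). Its call was lost without the first mESC_control library, the low one at 9.09 FPKM (adjusted p = 0.13), without each RA_control library in turn (0.0671, 0.07 and 0.0519) and with no filter (0.0704), in a range over 16 alternatives from 0.00623 to 0.13. Asns fell from 259.8, 255 and 251 FPKM to 182, 173 and 189 FPKM (log2 -0.49, SE 0.05, adjusted p = 3.38e-06). Sesn2 fell from 34.6, 35.2 and 38.1 FPKM to 25.9, 24.9 and 25.7 FPKM (log2 -0.48, SE 0.08, adjusted p = 0.000265). Both groups of both genes were tight and did not overlap. Xbp1 fell to 20.7, 19.7 and 21.6 FPKM (log2 -0.41, SE 0.07, adjusted p = 0.000168). Trib3 fell to 15.7, 13.1 and 16.1 FPKM (log2 -0.32, SE 0.12, adjusted p = 0.0366), a call that was lost without the second (0.0681) or the third (0.134) mESC_control library and without the second RA_control library (0.141).

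The levels of Atf4 and Hspa5 did not pass in this comparison. Atf4 measured 85.7, 81.5 and 83.9 FPKM with RA, near the lowest mESC_control library at 82.4 FPKM and below the other two (log2 -0.23, 95% interval -0.45 to -0.01, adjusted p = 0.0581). It was called lower without that first mESC_control library (log2 -0.36, adjusted p = 0.00207), with limma-voom (0.0194) and with the stricter filter (0.0463). Hspa5 measured 107, 109.6 and 104 FPKM (log2 0.07, 95% interval -0.06 to 0.20, adjusted p = 0.295). Scaling bears on such small differences between mESCs and RA-treated cells. When each library was scaled to a fixed total of length-corrected fragments (TPM), the median of all genes moved from -0.03 to 0.22. The split of calls then was 5 higher and 3 lower, with Hspa5 gained (adjusted p = 0.00183) and Trib3 lost (adjusted p = 0.51), and scaling to the total fragments gave the same split. Over all genes tested, 47.5% of the calls were higher under the deposited scaling and 66.3% under TPM scaling.

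OGT inhibition in RA-treated cells was the third comparison, RA_OGTi against RA_control. Here 3 of the 10 genes fell, Ddit3, Hspa5 and Atf4, and 1 rose, Asns. Of all genes tested 17.6% were called higher and 14.3% lower. The median log2 fold change was -0.25 over the 10 genes and 0.00 over all. Cell type markers moved with the inhibitor here as well: the summed FPKM of the embryonic stem cell markers was 2482 to 3086 in RA_control and 2011 to 2242 in RA_OGTi, with 6 of 8 called lower and 1 higher, and that of the RA response markers was 823 to 876 and 1080 to 1133, with 5 of 8 called higher and 1 lower. Their part in the changes of the 10 genes, and in the interaction, was not tested. The third RA_OGTi library was the highest of its group for 9 of the 10 genes, the second the lowest for 8, and the second RA_control library the lowest of its group for 8.

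Ddit3 fell from 76.8, 71.3 and 84.9 FPKM to 40.3, 40.5 and 46.2 FPKM, 1.83-fold lower in means (log2 -0.86, SE 0.10, adjusted p = 0.000119). The groups were far apart, yet the level with inhibitor remained well above that of either mESC group. Hspa5 fell from 107, 109.6 and 104 FPKM to 72.2, 73.1 and 79.7 FPKM (log2 -0.51, SE 0.06, adjusted p = 0.000113). The spread within each group was small beside this gap, and Hspa5 had 5780 to 8657 fragments per RA-treated library. Atf4 fell from 85.7, 81.5 and 83.9 FPKM to 66.3, 60.0 and 73.8 FPKM (log2 -0.33, SE 0.10, adjusted p = 0.0283). Its call was lost in 5 of 16 alternatives, among them without the second RA_OGTi library, the lowest (adjusted p = 0.101), without the first (0.0715), and without the first (0.0775) or the third (0.063) RA_control library. Asns rose from 182, 173 and 189 FPKM to 217, 206 and 223 FPKM (log2 0.25, SE 0.05, adjusted p = 0.00346). The calls of Ddit3, Hspa5 and Asns held in all 16 alternatives, of which median-of-ratios scaling repeats the deposited scaling and could change little.

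Of the genes that did not pass, Herpud1 measured 17.4, 15.3 and 15.5 FPKM without and 13.3, 12.1 and 14.1 FPKM with inhibitor, groups that did not overlap (log2 -0.27, adjusted p = 0.0643). Atf3 measured 11.1, 9.09 and 11.03 FPKM without and 8.54, 8.17 and 9.33 FPKM with inhibitor, with overlap (log2 -0.23, adjusted p = 0.0679). Both passed with limma-voom on whole fragments, at adjusted p of 0.0229 and 0.0422. Chac1 measured 21.1, 14.9 and 18.3 FPKM with inhibitor, below the 3 controls (log2 -0.31, 95% interval -0.84 to 0.22, adjusted p = 0.361). Trib3, Sesn2 and Xbp1 had overlapping groups, with log2 values of -0.17, 0.10 and 0.09.

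The difference of the inhibitor effects was tested as an interaction, the effect in RA-treated cells minus that in mESCs. It was called lower for 7 of the 10 genes and higher for none, against 3.79% and 3.9% of all genes tested. As the 10 genes were chosen with earlier results known, these shares describe the background only. For the 0 called higher, limma gave 1 gene at an unadjusted p under 0.05 (Xbp1) and limma-voom called 0. TPM scaling called 2 higher, Asns (adjusted p = 0.0453) and Xbp1 (0.0327), and library-total scaling called Xbp1 (0.0432), each with 7 lower. The difference for Chac1 was -1.52 (SE 0.34, adjusted p = 0.0229) and for Ddit3 -1.28 (SE 0.14, adjusted p = 0.000597). Smaller differences were those of Herpud1 at -0.86 (adjusted p = 0.00682), Atf4 at -0.73 (0.013), Trib3 at -0.70 (0.0344), Atf3 at -0.68 (0.0108) and Hspa5 at -0.51 (0.00522). The 2 effects behind each difference share no library. For Chac1, Herpud1, Trib3 and Atf3 the mRNA rose with inhibitor in mESCs and the value in RA-treated cells did not pass. For Ddit3 and Atf4 it rose in mESCs and fell in RA-treated cells, and for Hspa5 it fell in RA-treated cells and its value in mESCs did not pass. The differences for Asns (0.14, adjusted p = 0.272), Sesn2 (-0.13, adjusted p = 0.558) and Xbp1 (0.25, adjusted p = 0.136) did not pass.

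The 5 differences of Ddit3, Herpud1, Atf3, Atf4 and Hspa5 stayed called in all 21 alternatives, with adjusted p of at most 0.00299, 0.0202, 0.0324, 0.0345 and 0.0187. That of Chac1 was lost in 4, among them without the first (0.0512) or second (0.053) mESC_OGTi library and without the first RA_control library (0.05), and that of Trib3 in 10, among them without the first or second mESC_control, first or second mESC_OGTi, first or the third RA_control, or first or second RA_OGTi library (range 0.00941 to 0.0835). The 2 states also differ in culture time and perhaps in exposure to the inhibitor, and these cannot be told apart from the state itself.

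RA with inhibitor was the fourth comparison, RA_OGTi against mESC_OGTi. It shares its libraries with both inhibitor comparisons. Ddit3 and Atf3 rose, and 7 of the 10 genes fell, where 32% of all genes tested were called higher and 36.7% lower. Ddit3 rose 2.68-fold (log2 1.37, adjusted p = 2.05e-07) and Atf3 3.68-fold, from 2.36 ± 0.345 to 8.68 ± 0.594 FPKM (log2 1.53, adjusted p = 3.80e-08). Trib3 fell from 28.6, 32.4 and 22.9 FPKM to 12.7, 12.3 and 14.7 FPKM (log2 -1.02, adjusted p = 1.65e-05). Atf4 fell from 131 ± 6.57 to 66.7 ± 6.90 FPKM, a ratio of 0.510 (log2 -0.96, adjusted p = 4.62e-06). The groups of both genes were well apart.

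Chac1 fell from 34.5 ± 9.54 to 18.1 ± 3.10 FPKM (log2 -0.87, adjusted p = 0.00693). The other falls in this comparison were those of Sesn2 (log2 -0.61), Hspa5 (-0.44), Asns (-0.36) and Xbp1 (-0.16, adjusted p = 0.0467). Herpud1 measured 13.3 ± 1.93 FPKM in mESC_OGTi and 13.2 ± 0.986 FPKM in RA_OGTi, with a log2 difference of -0.0037 (95% interval -0.23 to 0.22). Under TPM scaling the calls were 2 higher and 4 lower. Chac1 (adjusted p = 0.0524) and Hspa5 (0.0517) were then not called, and the value of Xbp1 changed sign. The call of Xbp1 was also lost without the second or the third mESC_OGTi library and without the first or second RA_OGTi library (adjusted p from 0.129 to 0.169). Chac1 rose with RA without inhibitor and fell with RA after it, and the test of that difference is the interaction given above, at -1.52.

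**Figure D4:**
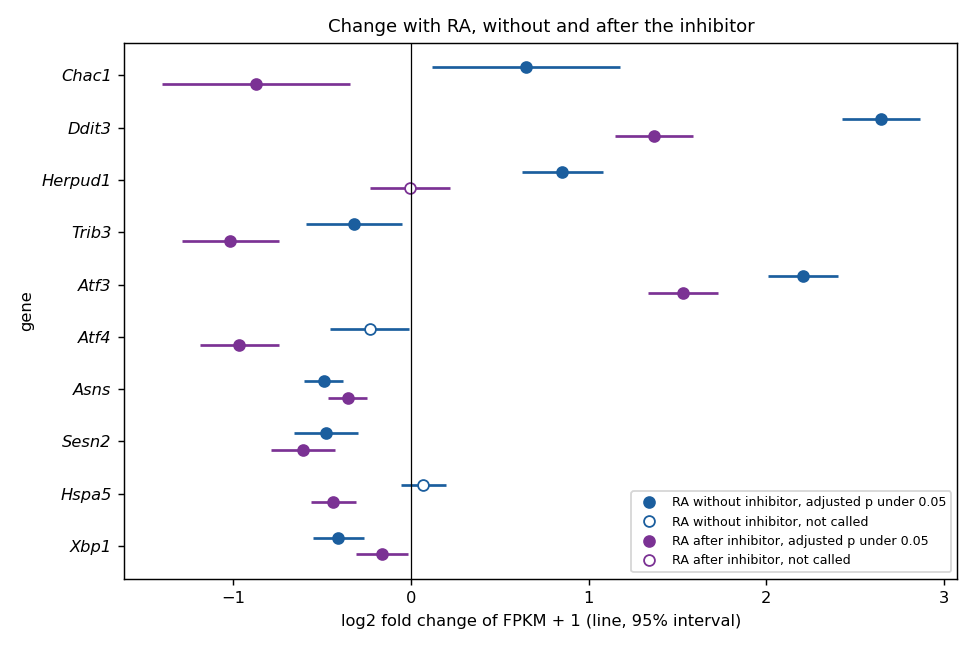
Log2 fold change of FPKM + 1 with RA for each of the 10 genes, without and with the inhibitor. Points are estimates and bars are 95% intervals from limma. Ddit3 and Atf3 lie far above 0 in both, and Chac1 lies above 0 without inhibitor and below 0 with it.

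The sensors and regulators upstream of these genes were called in mESCs with the inhibitor at about the share of all genes. That share was 4.6% higher and 3.18% lower. Of 24 tested genes for stress sensors, eIF2 kinases and eIF2 regulators, 1 rose, Mbtps1 (log2 0.19), the protease that activates ATF6, and 1 fell, Eif2s1 (log2 -0.18), which encodes the phosphorylated eIF2 subunit. Both calls were lost without the second mESC_control library and without the second or the third mESC_OGTi library. Their list's median log2 fold change was -0.00017, against 0.01 for all genes. The genes of the 3 ER sensors and Ppp1r15a are named here by their role, after their values were seen. Eif2ak3, which encodes PERK, measured 4.18 ± 0.296 FPKM without and 4.09 ± 0.360 FPKM with inhibitor. Ern1 (IRE1) measured 2.78 ± 0.057 and 2.83 ± 0.232 FPKM, and Atf6 5.21 ± 0.315 and 4.95 ± 0.288 FPKM, and none of the 3 passed. Over all genes tested, 33.7% were called higher and 37.2% lower with RA. With the inhibitor in RA-treated cells these shares were 17.6% and 14.3%. Together with those in mESCs, these shares are the background for the list counts under the deposited scaling, here and below. They do not serve for counts under TPM scaling. That scaling called 7855 genes higher and 3992 lower with RA, and 3342 and 1656 with the inhibitor in RA-treated cells. With RA 6 of the 24 rose and 13 fell (median -0.33), or 10 and 11 under TPM scaling. Among the falls were Eif2b5 (log2 -1.06), Atf6b (-1.04) and Eif2b1 (-0.89). Ern1 (log2 0.77) and Atf6 (0.45) rose with RA. Ppp1r15a, which directs dephosphorylation of eIF2, fell with RA (-0.71). The inhibitor in RA-treated cells came with 6 rises, among them Eif2b5 (0.47), Atf6b (0.40) and Mbtps1 (0.38), and 3 falls. Among the falls were Ern1, from 5.46 to 4.67 FPKM (adjusted p = 0.0349 by limma), and Eif2ak3, from 4.39 to 3.67 FPKM (0.0498). These calls were lost in 9 and 10 of 15 alternatives, and Atf6 did not pass there (0.528). With TPM scaling the falls were not called, and with only the groups compared 4 rises and 0 falls were called.

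Other targets of ATF4 and CHOP were called in mESCs at about the share of all genes, 4.6% higher. Of 22 tested, 1 rose with the inhibitor, Jdp2, a transcriptional repressor of the AP-1 family, from 4.29 ± 0.182 to 6.71 ± 0.933 FPKM (log2 0.54, adjusted p = 0.00424), and none fell, with 4 higher and 3 lower at an unadjusted p under 0.05 and 1 higher and 1 lower by limma-voom. With RA 9 rose and 8 fell (12 and 7 under TPM scaling), near the shares of all genes, 33.7% and 37.2%. Among the falls were the secreted stress hormone Gdf15 (log2 -1.57), Stc2 (-1.06) and Cth (-0.98). In RA-treated cells the inhibitor came with 6 rises and 3 falls, against 17.6% and 14.3% of all genes. Jdp2 (0.68) and Stc2 (0.57) rose, and Ddit4, an inhibitor of mTORC1 induced by stress, fell from 188 ± 12.6 to 94.99 ± 6.07 FPKM (log2 -0.98, adjusted p = 0.000506).

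Genes of amino acid supply were next. Of 15 genes of amino acid synthesis and transport, 3 rose in mESCs with the inhibitor, the transporters Slc1a4 (log2 0.34) and Slc7a1 (0.33) and the proline synthesis gene Aldh18a1 (0.29), and none fell, with 4 higher and 1 lower at an unadjusted p under 0.05 by limma. Without the second mESC_OGTi library 0 of the 15 were called, and without the first or second mESC_control library 1, Slc7a1. With RA 3 rose and 10 fell (3 and 7 under TPM scaling), with the largest fall in the arginine and lysine transporter Slc7a3, from 37.1 ± 1.11 to 9.25 ± 0.464 FPKM (log2 -1.90). In RA-treated cells 5 rose with the inhibitor, among them Slc7a3 (0.51) and Aldh18a1 (0.47), and Pycr1 fell (-0.57). All 20 cytosolic aminoacyl-tRNA synthetase genes, which charge tRNAs and include several known ATF4 targets, fell with RA, with a median log2 fold change of -0.61 against -0.03 for all genes. The largest falls were in Rars (-1.43), Farsb (-1.05) and Lars (-0.98), and 20 of 20 were also called lower under TPM scaling. None of the 20 was called with the inhibitor in mESCs by limma, where 1 was higher and 4 lower at an unadjusted p under 0.05 and limma-voom called 0 higher and 1 lower. In RA-treated cells 6 rose with it (11 under TPM scaling, 3 with only the groups compared), among them Wars (0.46), Sars (0.41) and Vars (0.30), and none fell, also at an unadjusted p under 0.05.

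Genes of the ER itself gave small changes with the inhibitor. Of 21 ER chaperone and folding enzyme genes, 3 rose in mESCs: Hyou1 (log2 0.39), an ER chaperone of the large HSP70 class, Pdia4 (0.32), a disulfide isomerase, and Uggt1 (0.24), which checks the folding of glycoproteins. None fell by limma, with 11 higher and 1 lower at an unadjusted p under 0.05 and 7 higher and 0 lower by limma-voom, and the median was 0.15 against 0.01 for all genes. The level of Hyou1 was 34.6 ± 3.13 FPKM in mESC_control and 45.6 ± 2.40 FPKM in mESC_OGTi. Other settings called 9 (TPM scaling) or 6 (replicate block) of them. In RA-treated cells 8 rose with the inhibitor, again with Hyou1 (0.54) and Uggt1 (0.47) among them, and 2 fell (4 and 2 with only the groups compared). Hspa5, whose level fell there, moved opposite to these. With RA alone 5 rose, among them Dnajc3 (0.85), Sil1 (0.75) and Txndc5 (0.59), and 9 fell, while TPM scaling gave 10 and 2, so the direction of the list with RA is not fixed by these data.

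Of 27 genes of ER-associated degradation and ER translocation, Derl3 rose (log2 0.47) and Ssr3 fell (-0.19) with the inhibitor in mESCs, and neither was called without the first mESC_control library or without the second or the third mESC_OGTi library. With RA 14 rose, among them the ubiquitin-conjugating enzyme gene Ube2j1 (1.38) and Edem3 (0.74), and 6 fell, or 20 and 3 under TPM scaling. The shares of all genes with RA were 33.7% higher and 37.2% lower under the deposited scaling. Under TPM scaling 7855 genes were called higher and 3992 lower. In RA-treated cells 6 rose with the inhibitor and 5 fell, not far from the shares of all genes, 17.6% and 14.3%. Os9 (0.47) was higher, and Selenos (-0.57) and Derl3 (-0.48) were lower. Derl3, which like Herpud1 serves degradation of ER proteins, had a difference of inhibitor effects of -0.95 (adjusted p = 0.00327), and Manf, a secreted ER stress protein, one of -0.43 (adjusted p = 0.016). Derl3 stayed called in all 20 alternatives that tested it and Manf in all 21. Slc7a3 had a difference in the other direction, 0.71 (adjusted p = 0.00255). The difference was called for 1 higher and 0 lower of the sensors and regulators, 1 and 2 of the other targets, 2 and 1 of the amino acid genes, 0 and 0 of the synthetases (6 and 0 at an unadjusted p under 0.05, 2 and 0 by limma-voom), 1 and 2 of the chaperones and 3 and 1 of the degradation and translocation genes. These list counts were unstable: over 21 alternatives they ranged from 0 to 3 higher and 0 to 1 lower for the sensors and regulators, 0 to 2 and 0 to 3 for the other targets, 1 to 2 and 0 to 1 for the amino acid genes, 0 to 4 and 0 to 0 for the synthetases, 0 to 2 and 1 to 2 for the chaperones, and 1 to 3 and 0 to 1 for the degradation and translocation genes. Leaving out the second mESC_OGTi library, among others, took both the sensors and the other targets to 0 and 0, where the single sensor call, Atf6b (0.42), was lost in 13 of 21 alternatives.

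**Figure D5:**
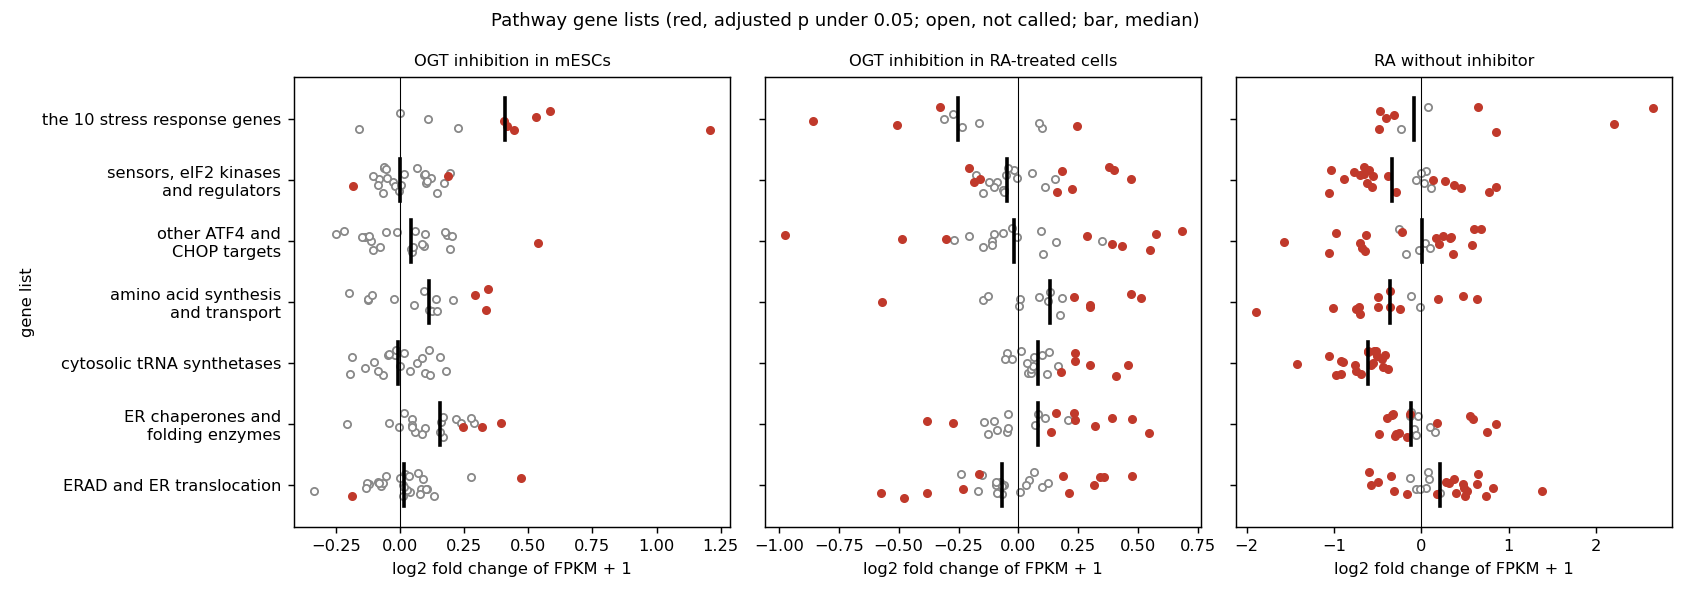
Log2 fold change of FPKM + 1 of each tested gene in the 10-gene group and 6 pathway lists. The comparisons drawn are the inhibitor in mESCs, the inhibitor in RA-treated cells and RA without inhibitor. Points are genes and lines are medians. The synthetases lie below 0 for every gene with RA, at a median of -0.61, and with the inhibitor in mESCs the medians are 0.41 for the 10 genes, 0.15 for the ER chaperones, 0.11 for the amino acid genes and nearer to 0 for the other lists.

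The genes most like 4 of the 10 were sought by the root mean square difference of centred log2(FPKM + 1) over the 12 libraries, among 12321 protein-coding genes tested. For Trib3 the nearest gene was Atf4 (0.13), followed by Actn3 (0.14) and Ifi35 (0.15). For Chac1 the nearest were Uchl4 (0.31), Mtfp1 (0.37) and Ogt (0.38). Ogt encodes the inhibited enzyme and had means of 18.1, 40.8, 23.2 and 26.4 FPKM in mESC_control, mESC_OGTi, RA_control and RA_OGTi. These differences were larger for Chac1 than for Trib3, but the measure also grows with the size of a gene's own changes and spread. It therefore does not rank likeness between the 4 genes. For Ddit3 the nearest were Krt18 (0.16), a keratin of simple epithelia, Gm4340 (0.19) and Nnat (0.21). Krt18 went from 31.0 FPKM in mESC_control to 169 FPKM in RA_control and 83.0 FPKM in RA_OGTi. For Hspa5 the nearest included Pclaf (0.07) and Pdp2 (0.08). All of these share their libraries, so the values describe likeness within this series only.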

How the data were processed

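RNA was extracted with TRIzol and made into NEBNext Ultra libraries, per the labels' protocols, and per the submitters' processing notes GRCm38, HISAT2 (2.0.5) and featureCounts (1.5.0) were used. For filters, strand setting and FPKM formula nothing is given in the sources used here. The deposited table holds FPKM of 54555 genes in 12 libraries. Multiplied by gene length they gave whole fragments for 100% of values (tolerance 0.02), 15553627 to 17833464 per library, and the deposited FPKM carry median-of-ratios scaling, with recovered over implied totals of 1.06 to 1.11 in mESC and 0.883 to 0.934 in RA libraries. No 2 libraries of a group agreed within sampling noise (chi-square per gene 3.74 to 9.96).

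Two-sided tests came from limma 3.58.1 in R 4.3.3, fitted with trend to log2(FPKM + 1) of all 12 libraries together, a scale that understates changes of low genes. A gene was tested if 3 or more libraries reached 1 FPKM (14866 genes). Adjustment was by Benjamini-Hochberg over these genes, at a threshold of 0.05. The 10 genes and the 6 pathway and 5 marker lists were chosen with earlier results of these data known. Named list genes are up to 3 called genes per list and comparison with the largest absolute change and a mean of at least 2 FPKM in a group. Some genes the naming took are not reported here. Of 26 listed sensors and regulators 24 were tested, and of 24 other targets 22. Other settings tried were no filter, a pseudocount of 0.1, a filter at a mean of 5 FPKM, TPM, median-of-ratios and library-total scaling (the last added after seeing the data), only the groups compared, a replicate block, no trend, limma-voom on whole fragments and leaving out each library. Median-of-ratios scaling repeats the deposited scaling, so wherever alternatives are counted it could change little. It called 1156 genes with the inhibitor in mESCs, against 1157 in the main fit. Scripts were tested on simulated data. Promoters came from RefSeq, and deposited coordinates and lengths of the 10 genes equal those of GENCODE M21. Summaries used Python 3.11.15, pandas 2.3.3, numpy 2.4.6, scipy 1.17.1 and matplotlib 3.10.9.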

Additional observations from a re-analysis of the deposited data

Results flagged for a closer look

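The effect of the inhibitor differed between mESCs and RA-treated cells for 7 of the 10 genes by a test of the difference itself, the interaction in limma. All 7 were called lower, where 3.79% of all genes tested were called lower and 3.9% higher. The 10 genes were chosen with earlier results of these data known. The call of Trib3 was lost in 10 of 21 alternatives and that of Chac1 in 4. The differences on the log2(FPKM + 1) scale, effect in RA-treated cells minus effect in mESCs, were -1.52 for Chac1, -1.28 for Ddit3, -0.86 for Herpud1, -0.73 for Atf4, -0.70 for Trib3, -0.68 for Atf3 and -0.51 for Hspa5. With groups of 3, no test was made for single libraries that stand apart.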

How the results depend on the processing

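Of 160 values of the 10 genes over 16 alternatives, the inhibitor in mESCs lost 25 calls and gained 0. The number of the 10 genes called there was 6, and 3 with no filter on low values, 0 with only the groups compared (8 higher and 1 lower at an unadjusted p under 0.05), and between 1 and 5 when each library was left out. With RA the count was 8 and 6 to 8 with each library left out, with the inhibitor in RA-treated cells 4 and 3 to 5, with RA and inhibitor 9 and 8 to 9, and for the difference of effects 7 and 5 to 7. Values that changed sign after a call were those of Xbp1 with RA and inhibitor, 0.10 under TPM and 0.088 under library-total scaling. These scalings moved the median of all genes with RA from -0.03 to 0.22 and 0.16, and the stricter filter moved it to -0.18. Recovered over implied totals were 1.06 to 1.11 in mESC and 0.883 to 0.934 in RA libraries. Library-total scaling therefore raises RA values against mESC values by construction. Why these totals differ, and the causes of the other shifts, were not tested. Same-numbered libraries of different groups had deviations correlated at -0.02 to 0.12, so the numbers were not taken as pairs. With the replicate block the counts were 6, 7, 4, 9 and 6 for the 5 comparisons in the order above, with the call of Trib3 lost with RA (adjusted p = 0.0557) and in the difference of effects (0.055). Over all genes, the inhibitor in mESCs was called for 1157, and for 664 with no filter, 512 with only the groups compared, 489 or 430 without the first or second mESC_control library and 361 or 535 without the second or the third mESC_OGTi library. The difference of effects was called for 1143, and for 744, 705, 726 and 638 without the second mESC_control, second mESC_OGTi, first RA_control and first RA_OGTi library. The stricter filter tested fewer genes and called 6161 with RA (10534 otherwise), 6046 with RA and inhibitor (10209) and 3145 with the inhibitor in RA-treated cells (4738). The low count of Atf3 fragments in mESC_control limits the precision of its fold changes.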
